A study of Danio rerio with 12 samples.

Results

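Follicles of the primary growth stage from 50-day-old zebrafish (Danio rerio) with 1 disrupted copy of cdkn1a were compared by bulk RNA sequencing with those of wild-type fish of the same age. The comparison takes 6 of the 12 samples of the series: 3 libraries of cdkn1a (+/-) fish at 50 days post-fertilization (dpf) and 3 libraries of cdkn1a (+/+) fish at 50 dpf, chosen by the labelled genotype and age. All fish were of the AB strain, and the disruption was made with CRISPR/Cas9. Heterozygotes were studied because fish with no working copy die as embryos, per the series description. The other 6 samples, of the same genotypes at 8 months post-fertilization (mpf), were fitted in the same model. They therefore also enter the filter on low counts and the estimate of spread behind the p-values at 50 dpf. Their levels are given where the effect of genotype was compared between ages. Each group is known from its labels alone: the allele, the sampling batches and the number of fish behind a library are not given in the sources used here, so the p-values measure the spread between libraries, which may be partly technical. The heterozygote libraries are called HE 1 to HE 3 and the wild-type libraries WT 1 to WT 3, by the replicate numbers of the labels.

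cdkn1a encodes p21, a protein that binds and inhibits cyclin-dependent kinases and halts the cell cycle before S phase. It is induced when DNA is damaged. A primary growth follicle holds an oocyte arrested in the first meiotic prophase, wrapped in somatic follicle cells. During this stage the oocyte enlarges and stores transcripts and proteins, among them the egg coat, before yolk is taken up.

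The libraries held 31806697 to 38176388 estimated counts in heterozygotes and 31044931 to 58981733 in wild type. In depth the groups overlapped, whereas the number of genes detected did not, at 18903 to 19510 in heterozygotes and 21046 to 22496 in wild type. The 100 most abundant genes took 34.2% ± 1.98 of the counts in heterozygotes and 28.5% ± 1.42 in wild type (SD, n = 3 each; exact two-sided permutation p = 0.1, the smallest that 3 against 3 allow). HE 1 stood somewhat apart: its log2 expression correlated with HE 2 and HE 3 at 0.966 and 0.962 across genes, against 0.975 between HE 2 and HE 3 and 0.980 to 0.986 among wild-type libraries. These correlations are descriptions, since genes are not independent replicates. All levels below are CPM, counts per 1000000 of a library total that was adjusted with TMM factors (trimmed mean of M-values). These factors were 0.757, 0.893 and 0.893 in heterozygotes and 1.03, 1.08 and 1.09 in wild type. CPM does not correct for gene length, so levels are compared between libraries and not between genes.

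The label of the tissue was checked against oocyte genes. GDF9 (ENSDARG00000003229), an oocyte growth factor, was at 69.1, 75.3 and 74.5 CPM in heterozygotes and 59.8, 56 and 56.4 CPM in wild type. bmp15 (ENSDARG00000037491), its partner in the oocyte, was at 264, 262 and 239.8 CPM in heterozygotes and 203, 192 and 196 CPM in wild type. The receptor for follicle-stimulating hormone, FSHR (ENSDARG00000071494), which marks follicle cells, was near 0 in all 6 libraries, at 0, 0.176 and 0.0916 CPM in heterozygotes and 0.263, 0.268 and 0.257 CPM in wild type. The oocyte genes were thus abundant in both groups and this follicle cell receptor was barely counted in either. Other follicle cell genes were counted: gsdf at 13.5 to 17.3 CPM in heterozygotes and 36.3 to 43.1 CPM in wild type, and FOXL2 (ENSDARG00000068417) at 0.739 to 1.28 CPM in heterozygotes and 5.5 to 6.82 CPM in wild type. FSHR alone is therefore no measure of the follicle cells present.

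The disrupted gene was low in every heterozygote library. cdkn1a (ENSDARG00000076554) stood at 0.45, 0.422 and 0.519 CPM in heterozygotes and 3.37, 3.87 and 3.5 CPM in wild type, groups that did not overlap, with a log2 fold change of -2.94 (adjusted p = 6.79e-06, SE 0.28) in edgeR's quasi-likelihood test. In such bulk samples, fewer cells of a type and less RNA per cell cannot be told apart, here or for any gene below. The effect differed from that at 8 mpf by -2.26 on the log2 scale (adjusted p = 0.00193). At 8 mpf the log2 fold change of cdkn1a was -0.68 and was not called (adjusted p = 0.0679 in the same test).

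Of 18834 tested genes, 7691 (40.8%) passed an adjusted p of 0.05 (Benjamini-Hochberg over all tested genes), 3696 higher (19.6%) and 3995 lower (21.2%) in heterozygotes. The 2 directions differed in size and in the level of the genes. Genes called higher had a median log2 fold change of 0.63 and a median of 35.1 CPM in heterozygotes, the higher group. Those called lower had a median of -1.31 and 3.97 CPM in wild type, the higher group for them. Among genes averaging over 100 CPM in the 6 libraries, 45.2% were higher and 4.68% lower, whereas under 1 CPM 5.80% were higher and 23.1% lower. A total of 197 genes rose and 731 fell by at least 3 on the log2 scale. Of the genes called lower, 306 had no count in any heterozygote library, while 44 of those called higher had none in any wild-type library. Where a change of at least 1 on the log2 scale was asked for as well, 966 genes (5.13%) were higher and 2495 (13.2%) lower. Called or not, 5033 tested genes (26.7%) were higher and 5784 (30.7%) lower without overlap of the groups in CPM.

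**Figure D1:**
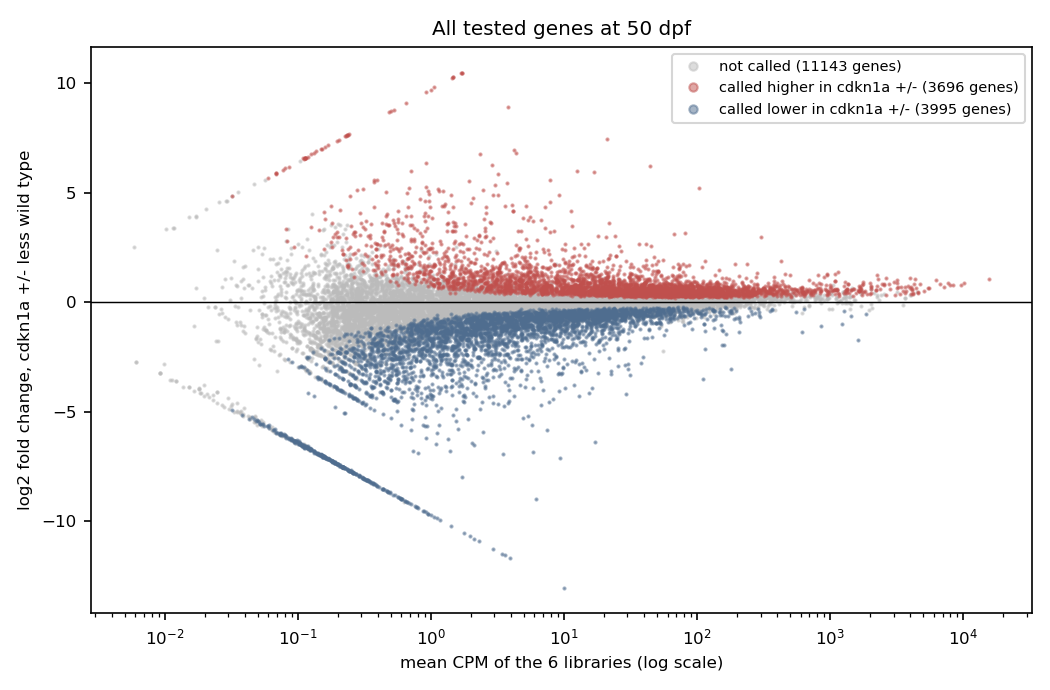
Log2 fold change (cdkn1a +/- less wild type) of the 18834 tested genes against their mean CPM over the 6 libraries on a log scale. Red points are the 3696 genes called higher and blue points the 3995 called lower; calls at high CPM are mostly higher and calls at low CPM mostly lower, and the diagonal lines of points are genes with no count in 1 group.

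The scaling moved the split of directions. Scaled by library size alone, 1618 genes (8.59%) were higher and 6745 (35.8%) lower. The median log2 fold change of all tested genes was then -0.40, and -0.071 with TMM. For each gene list below the counts by library size alone therefore stand beside the main ones, and this shift of -0.329 is larger than some of the log2 fold changes that follow.

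Transcripts of other tissues were counted in both groups, and their summed CPM was lower in heterozygotes for several lists of markers. Liver markers, which are mostly plasma proteins, summed to 37.2 to 44.7 CPM in the heterozygote libraries and 315 to 330 CPM in the wild-type libraries. Of these 0 of 27 tested members were higher and 25 lower (0 and 25 by library size alone, 0 higher at an unadjusted p under 0.05 in edgeR and 0 called higher by DESeq2), with a median log2 fold change of -3.04. tfa (ENSDARG00000016771), a transferrin, was at 6.96, 5.0 and 5.77 CPM in heterozygotes and 43.9, 43.6 and 47 CPM in wild type. fetub (ENSDARG00000053973), a plasma fetuin, was at 6.2, 6.2 and 4.61 CPM in heterozygotes and 55.6, 57 and 58.5 CPM in wild type, and fabp10a (ENSDARG00000038439), the fatty acid binding protein of liver, averaged 1.28 ± 0.572 CPM in heterozygotes and 19 ± 1.33 CPM in wild type (SD, n = 3 each). No heterozygote library reached the level of any wild-type library for these 3 genes.

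Leukocyte markers summed to 24.8 to 30.9 CPM in heterozygotes and 61 to 62.4 CPM in wild type, where 0 of 16 tested members were higher and 5 lower (0 and 6 by library size alone, 0 higher at an unadjusted p under 0.05 in edgeR and 0 called higher by DESeq2). Those called were cd74a, cd74b, LCP1, CORO1A and lyz, whereas the pan-leukocyte gene ptprc was at 0, 0.211 and 0.855 CPM in heterozygotes and 0.214, 0.387 and 0.44 CPM in wild type. Exocrine pancreas markers summed to 211 to 319 CPM in heterozygotes and 368 to 427 CPM in wild type, where 0 of 11 tested members were higher and 4 lower (0 and 8 by library size alone, 7 lower with the 50 dpf libraries alone, 7 lower with the replicate block, 0 higher at an unadjusted p under 0.05 in edgeR and 0 called higher by DESeq2). Stromal fibroblast markers summed to 104 to 114 CPM in heterozygotes and 146 to 153 CPM in wild type, where 2 of 20 tested members were higher and 7 lower (0 and 9 by library size alone, 1 higher without HE 1, 1 without HE 2, 1 without HE 3, 0 without WT 1, 1 without WT 2, 0 without WT 3, 4 lower without WT 2). Neuron markers summed to 41.8 to 44.7 CPM in heterozygotes and 57.6 to 63.7 CPM in wild type, and 0 of 12 tested members were higher and 6 lower (0 and 6 by library size alone, 1 higher without HE 2, 1 without WT 2, 1 higher at an unadjusted p under 0.05 in edgeR and 0 called higher by DESeq2). Much of the neuron sum was the tubulin gene tubb5, at 23.9, 22.6 and 21.5 CPM in heterozygotes and 36.2, 35.1 and 32.7 CPM in wild type. Without a call, 5 of the 12 neuron markers had a log2 fold change above 0. The testis germ cell markers summed to 21.3 to 26.9 CPM in heterozygotes and 64.3 to 68.1 CPM in wild type, mostly from SPATA18 (ENSDARG00000052343) at 6.33, 7.18 and 7.76 CPM in heterozygotes and 49, 51.4 and 52.2 CPM in wild type. Here 1 of 12 tested members was higher and 3 lower (1 and 6 by library size alone, 2 higher without HE 2, 7 lower without HE 3, 5 lower by DESeq2). Lower calls made up 31.2% of leukocyte, 36.4% of exocrine pancreas, 35.0% of fibroblast, 50.0% of neuron and 25.0% of testis germ cell markers. Of all tested genes 21.2% were lower, and of those at a mean of 1 to 10 CPM 33.1%. The part that expression level has in these marker calls was not tested.

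For the remaining lists the groups overlapped or nearly met. Erythrocyte markers summed to 41.4 to 56.6 CPM in heterozygotes and 51.5 to 63.6 CPM in wild type, endothelial markers to 13.7 to 15.3 CPM in heterozygotes and 15.5 to 17.4 CPM in wild type, and skeletal muscle markers to 25.3 to 25.8 CPM in heterozygotes and 25.9 to 26.8 CPM in wild type. Of erythrocyte markers 0 of 8 tested members were higher and 3 lower (0 and 5 by library size alone, 0 lower without HE 2, 1 without WT 2, 0 higher at an unadjusted p under 0.05 in edgeR and 0 called higher by DESeq2), with a median of -1.06 (-0.55 with genes at 0 in a group set to their bound). Of endothelial markers 1 of 11 tested members was higher and 3 lower (1 and 3 by library size alone), and of skeletal muscle markers 3 of 9 tested members were higher and 1 lower (1 and 2 by library size alone, 2 lower without HE 1). Early germ cell markers summed to 900 to 1050 CPM in heterozygotes and 846 to 909 CPM in wild type, and 2 of 8 tested members were higher and 1 lower (1 and 2 by library size alone, 2 lower without HE 3). The part that RNA of these tissues has in the gene differences below was not tested.

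**Figure D2:**
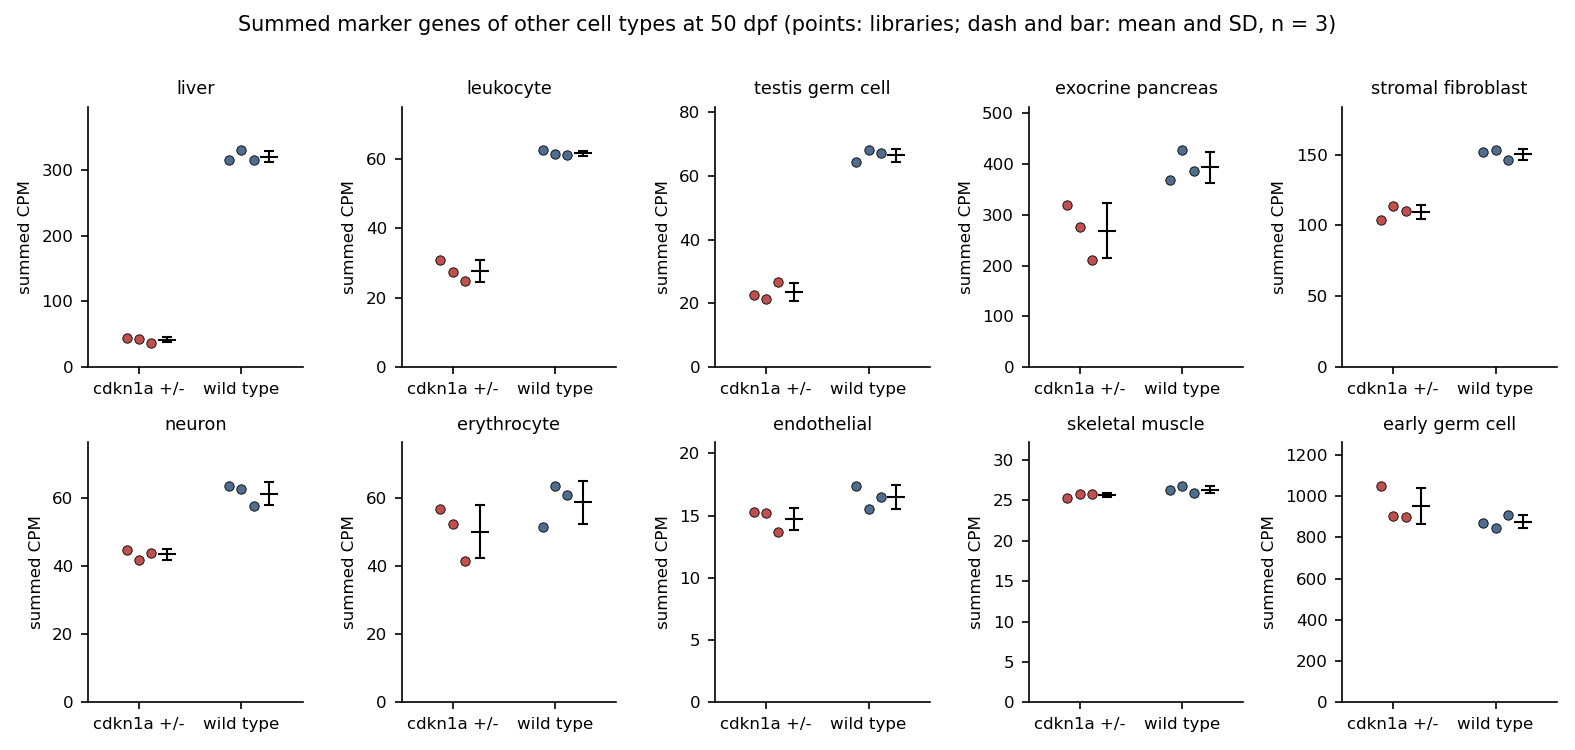
Summed CPM of the genes in 10 lists of cell type markers in each library of cdkn1a +/- (left) and wild type (right), with mean and SD (n = 3). Liver markers sum to 37.2 to 44.7 CPM in heterozygotes and 315 to 330 CPM in wild type, while skeletal muscle markers lie at 25.3 to 25.8 CPM in heterozygotes and 25.9 to 26.8 CPM in wild type.

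The largest rises were in genes with few counts in wild type. P2RX4 (ENSDARG00000042452), an ATP-gated ion channel, was at 26.1, 25.9 and 73.8 CPM in heterozygotes and 0.329, 0.268 and 0.128 CPM in wild type. Its level was highest in HE 3, and the log2 fold change was 7.43 (adjusted p = 3.05e-06, SE 0.62), or 6.74 without HE 3. A second gene of that symbol (ENSDARG00000044752) was at 51.1, 47.7 and 50.1 CPM in heterozygotes and 53.2, 53.7 and 56.1 CPM in wild type and was not called. HAPLN4 (ENSDARG00000018542), a link protein of the hyaluronan matrix, was at 97, 83 and 83 CPM in heterozygotes and 0.971, 1.46 and 1.16 CPM in wild type, a log2 fold change of 6.22 (adjusted p = 3.27e-08, SE 0.30). NLRC3 (ENSDARG00000103146), of a large family of intracellular immune receptors in fish, was at 36.9, 31.6 and 30.2 CPM in heterozygotes and 0.559, 0.536 and 0.513 CPM in wild type, a log2 fold change of 5.93 (adjusted p = 2.26e-09, SE 0.17). Reads of near-identical family members may be divided among genes such as this one, and how the counting treated them is not given in the sources used here.

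Further large rises were in genes at lower levels. sertad3 (ENSDARG00000097473), of the SERTA-domain proteins, was at 28.8, 23.9 and 21.2 CPM in heterozygotes and 0.28, 0.387 and 0.495 CPM in wild type. MATN1 (ENSDARG00000030215), a matrilin of cartilage matrix, was at 8.79, 9.01 and 7.24 CPM in heterozygotes and 0.0658, 0 and 0.11 CPM in wild type. BRINP3 (ENSDARG00000061051), of a family of neural proteins, was at 8.76, 8.9 and 8.15 CPM in heterozygotes and 0.115, 0.0596 and 0.0367 CPM in wild type. The log2 fold changes of these 3 genes were 5.99, 6.92 and 6.83 (adjusted p = 5.48e-08, 4.31e-07 and 9.98e-09). Lack of overlap between the groups was part of the rule that picked the genes with the largest changes. SH2D3C (ENSDARG00000104555), an SH2-domain adaptor, was at 16.6, 15.6 and 14.3 CPM in heterozygotes and 0.378, 0.268 and 0.293 CPM in wild type. PAPPA2 (ENSDARG00000076020), a protease that cleaves IGF-binding proteins, was at 7.03, 5.49 and 5.16 CPM in heterozygotes and 0.132, 0 and 0.257 CPM in wild type. YJEFN3 and PLEKHD1 rose as well, by 5.44 (SE 0.28) and 6.26 (SE 0.59) on the log2 scale. PLEKHD1 was counted in WT 1 but in neither WT 2 nor WT 3, and without WT 1 its fitted log2 fold change was 11.2, a value that depends on the prior count, or 5.64 without WT 3. With these few wild-type counts, MATN1 was at 7.56 without WT 3, while without WT 1 BRINP3 was at 7.48 and YJEFN3 at 6.12.

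The largest falls included 4 genes with no count in any heterozygote library. RXFP2 (ENSDARG00000019660), a relaxin family receptor, was at 19.8, 20.2 and 19.6 CPM in wild type, at least 198-fold lower in heterozygotes against a floor of 3 counts per library. myo15b (ENSDARG00000074852), an unconventional myosin, was at 8.36, 7.45 and 7.88 CPM in wild type and at least 78.7-fold lower in heterozygotes. fap (ENSDARG00000078468), a membrane serine protease named for fibroblast activation, was at 6.96, 5.54 and 4.93 CPM in wild type, at least 57.9-fold lower in heterozygotes. The fourth, ahsg2, is a plasma fetuin of the liver list, at 7.07, 7.62 and 6.8 CPM in wild type and at least 71.4-fold lower in heterozygotes. For RXFP2, myo15b and ahsg2 the wild-type libraries lay close together, whereas those of fap ranged from 4.93 to 6.96 CPM. The symbol RXFP2 is shared by 2 gene IDs, and the values are of the ID given alone.

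Receptors, ligands and surface proteins made up much of the rest. GPC1 (ENSDARG00000019341), a heparan sulphate proteoglycan of the cell surface, was at 0.139, 0.141 and 0.122 CPM in heterozygotes and 19.1, 17.4 and 18.7 CPM in wild type. ADM (ENSDARG00000015263), the vasodilator peptide adrenomedullin, was at 0.139, 0.493 and 0.55 CPM in heterozygotes and 35.6, 32.9 and 32.1 CPM in wild type. dll4 (ENSDARG00000070425), a Notch ligand, was at 0, 0.176 and 0.122 CPM in heterozygotes and 12.5, 11.3 and 10.8 CPM in wild type. In each of these 3 genes the heterozygote libraries lay under 1 CPM and the wild-type libraries over 10 CPM, with log2 fold changes of -7.08, -6.39 and -6.82 (adjusted p = 3.24e-08, 1.35e-07 and 6.14e-06). ZDHHC16 (ENSDARG00000007808), a protein palmitoyltransferase, was at 0, 0 and 0.0611 CPM in heterozygotes and 13.3, 11.5 and 12.4 CPM in wild type. The chemokine receptor gene ccr11.1 and HEPACAM2, of the immunoglobulin-like adhesion proteins, had log2 fold changes of -6.91 (SE 0.43) and -5.84 (SE 0.44). With few heterozygote counts behind them, ccr11.1 was at -8.45 without HE 3 and dll4 at -7.43 without HE 2.

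**Figure D3:**
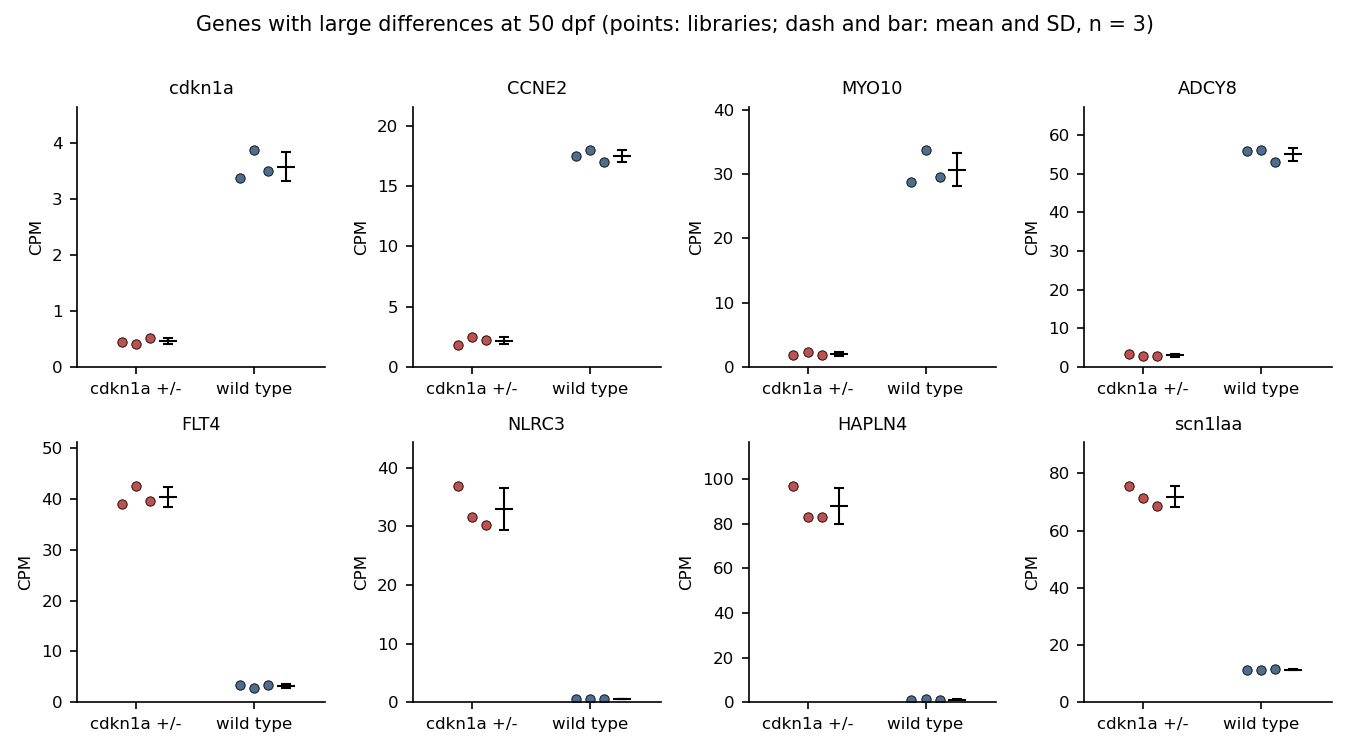
CPM of 8 genes in each library of cdkn1a +/- (left) and wild type (right), with mean and SD (n = 3), on axes that start at 0. cdkn1a, CCNE2, MYO10 and ADCY8 are lower and FLT4, NLRC3, HAPLN4 and scn1laa higher in every heterozygote library than in any wild-type library.

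Gene lists were described by the number of their tested members called in each direction and their median log2 fold change, beside 19.6% higher, 21.2% lower and a median of -0.071 over all tested genes. These shares varied with the level of the genes. At a mean of 1 to 10 CPM 16.5% were higher and 33.1% lower, at 10 to 100 CPM 26.0% and 14.3%, and over 100 CPM 45.2% and 4.68%. The part that expression level has in the counts of each list was not tested. The counts in brackets are those with library size alone and, where leaving out 1 library moved a count by more than 1.5 times, those without it.

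**Figure D4:**
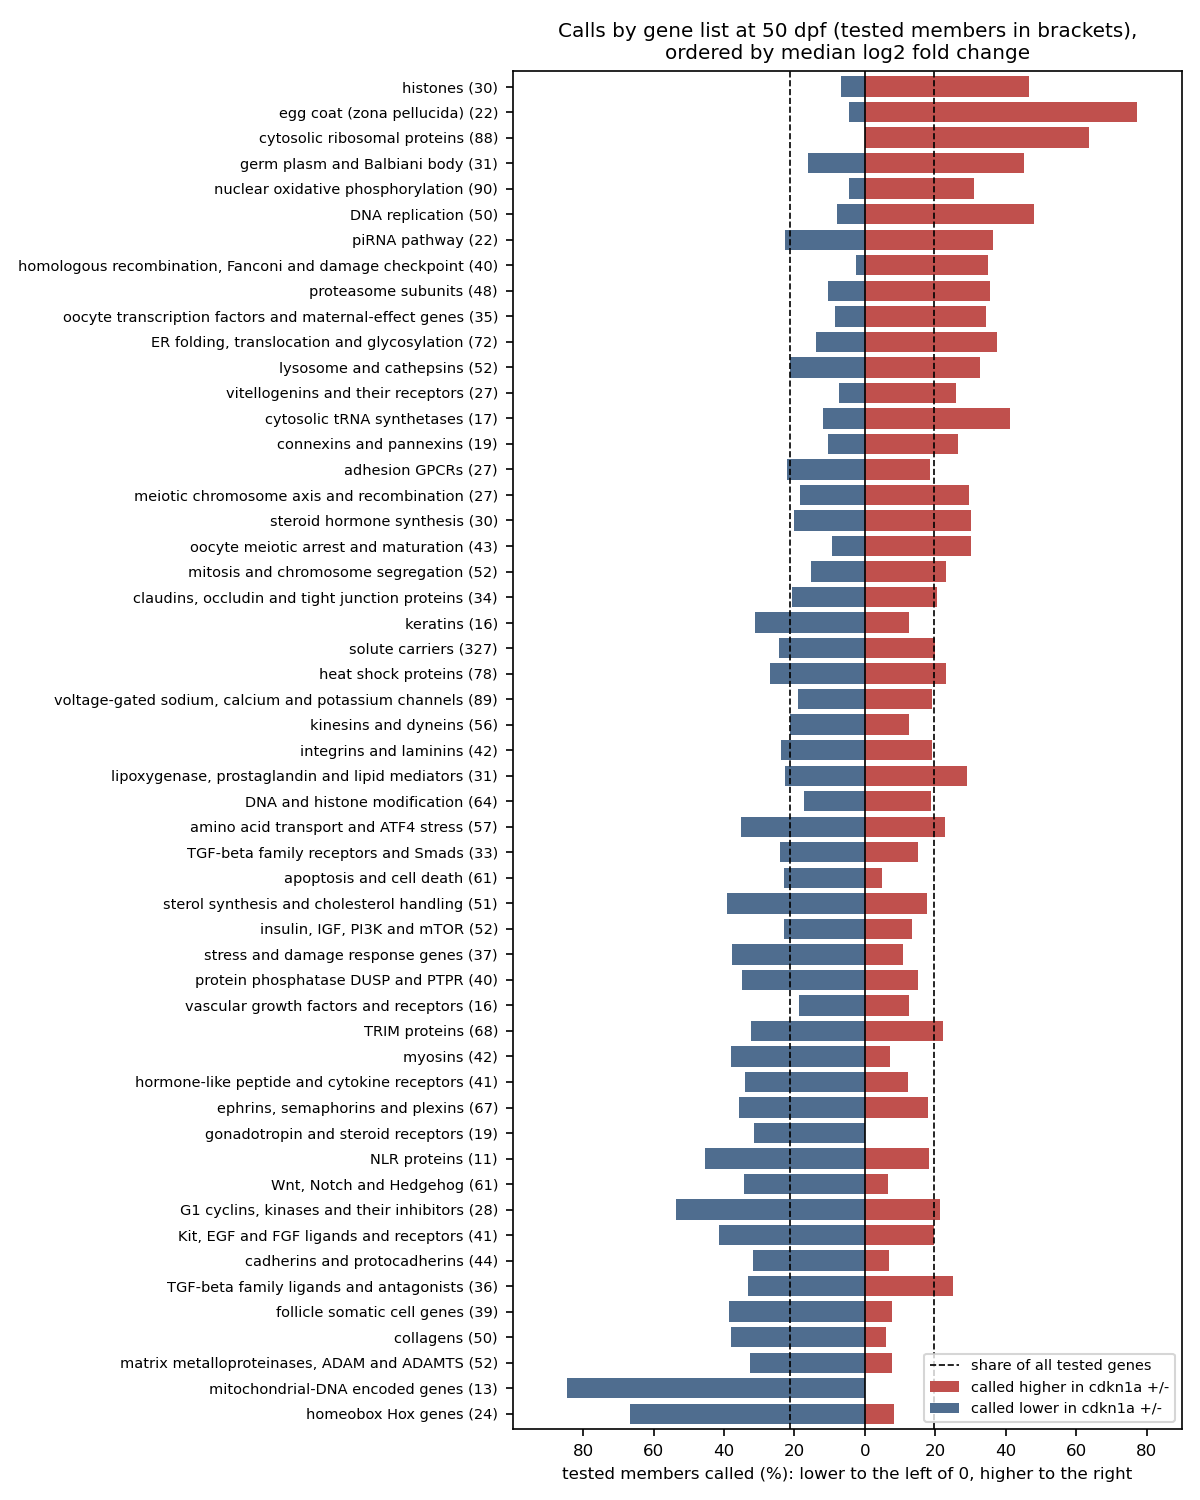
Percent of the tested members of each list called higher (red, right of 0) and lower (blue, left of 0) in cdkn1a +/- follicles, ordered by median log2 fold change, with the shares of all tested genes, 19.6% and 21.2%, as dashed lines. The egg coat, ribosomal protein and histone lists lie at the top and the Hox, mitochondrial-DNA and metalloproteinase lists at the bottom.

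Most egg coat genes were higher. They encode the zona pellucida proteins that the fish oocyte itself makes for its envelope, and 17 of 22 tested members were higher and 1 lower (14 and 1 by library size alone), with a median log2 fold change of 0.67. zp3b (ENSDARG00000039828) was at 5560, 5858 and 4966 CPM in heterozygotes and 2480, 2743 and 2370 CPM in wild type, a log2 fold change of 1.11 (adjusted p = 6.64e-05, SE 0.14). zpcx (ENSDARG00000059252) was at 1549, 1511 and 1609 CPM in heterozygotes and 609, 641 and 636 CPM in wild type, a log2 fold change of 1.31 (adjusted p = 4.48e-07, SE 0.088). The single member that fell was tgm1l1, a transglutaminase-like gene at 0.242, 0.774 and 0.519 CPM in heterozygotes and 1.65, 1.19 and 1.93 CPM in wild type. Summed over the list, the egg coat held 94000 to 126000 CPM in heterozygotes and 58200 to 71100 CPM in wild type.

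The 8 genes with the most counts in these libraries all rose. They were zgc:173556, the egg coat genes zp2.1, zp2.2, zp2.3, zp2.5 and zp3.2, the claudin gene cldnd and si:zfos-1505d6.3, with log2 fold changes of 0.71 to 1.04. zgc:173556 (ENSDARG00000090768) alone took 1.83%, 1.69% and 1.81% of the counts of HE 1 to HE 3, against 1.2%, 1.03% and 1.04% in WT 1 to WT 3. Copies of zp2 and zp3 are near-identical, so their separate counts are uncertain.

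Germ plasm genes, which build the Balbiani body and the determinants of the next generation's germ cells, were called higher more often than lower with TMM scaling, but not by library size alone: 14 of 31 tested members were higher and 5 lower (7 and 8 by library size alone, 9 higher without WT 1, 8 without WT 3), with a median of 0.34 (0.01 by library size alone). The 45.2% higher and 16.1% lower stand beside 19.6% and 21.2% of all tested genes. Over 100 CPM, 45.2% and 4.68% of genes were called. buc (ENSDARG00000096095), the organiser of the Balbiani body, was at 2792, 2082 and 2030 CPM in heterozygotes and 1320, 1163 and 1207 CPM in wild type, a log2 fold change of 0.90 (adjusted p = 2.44e-04, SE 0.13). NANOS3 (ENSDARG00000068255) was at 373, 305 and 258 CPM in heterozygotes and 201, 181 and 191 CPM in wild type, highest in HE 1 and without overlap. tdrd7a, a tudor protein of germ granules, and TRIM36 rose by 0.66 (SE 0.10) and 0.98 (SE 0.14). Among those that fell, CXCR4 (ENSDARG00000057633), a chemokine receptor that guides germ cells in embryos, was at 3.08, 3.27 and 3.05 CPM in heterozygotes and 23, 18.1 and 22.1 CPM in wild type. TDRD7 (ENSDARG00000077523) was at 5.92, 7.64 and 7.57 CPM in heterozygotes and 12.5, 13.2 and 12.5 CPM in wild type, and macf1a, a cytoskeletal linker needed in fish to disassemble the Balbiani body, fell by 0.75 (SE 0.17) on the log2 scale. macf1a was not called with the deposited normalized values (log2 fold change 0.02).

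In the piRNA pathway, which silences transposons in germ cells, 8 of 22 tested members were higher and 5 lower (3 and 6 by library size alone, 4 higher without WT 1, 4 without WT 2, 3 lower without WT 3), with a median of 0.25 (-0.09 by library size alone). PIWIL2 (ENSDARG00000062601) was at 299, 238 and 222 CPM in heterozygotes and 185, 175 and 204 CPM in wild type. PIWIL1 (ENSDARG00000041699) was at 106, 119 and 119 CPM in heterozygotes and 142, 140.4 and 145 CPM in wild type. With TMM scaling PIWIL2 and PIWIL1 thus moved in opposite directions (0.42 and -0.31, adjusted p = 0.0311 and 0.0061). The rise of PIWIL2 is little larger than the shift of -0.329 by library size alone, so the call of that rise may depend on the scaling. Such a shift moves both genes alike and does not set the difference between them. Among the tudor proteins tdrd5 rose by 0.54 (SE 0.086) and tdrd12 fell by 0.96 (SE 0.1).

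Of the oocyte transcription factors and maternal-effect genes 12 of 35 tested members were higher and 3 lower (5 and 10 by library size alone), with a median of 0.21 (-0.12 by library size alone). npm2b (ENSDARG00000053963), a nucleoplasmin stored for the embryo, was at 1191, 823 and 788 CPM in heterozygotes and 489, 454 and 446 CPM in wild type, a log2 fold change of 1.01 (adjusted p = 2.12e-04, SE 0.15). figla (ENSDARG00000087166), the transcription factor that drives egg coat genes in mouse, was at 174, 133 and 118 CPM in heterozygotes and 243, 221 and 249 CPM in wild type, a log2 fold change of -0.75 (adjusted p = 0.0016, SE 0.15). Most egg coat genes thus rose while figla fell. ZAR1, a maternal RNA-binding protein, rose by 0.46 (SE 0.12, adjusted p = 0.0111), while the homeobox factor LHX8 was at 285, 248 and 228 CPM in heterozygotes and 259.9, 234 and 242 CPM in wild type and was not called.

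Regulators of meiotic arrest and maturation included both directions: 13 of 43 tested members were higher and 4 lower (6 and 14 by library size alone, 7 higher without WT 2), with a median of 0.05 (-0.29 by library size alone, -0.03 by upper quartile scaling). gpr3 (ENSDARG00000094860), a receptor that in mouse holds the oocyte arrested by raising cAMP, was at 2.32, 1.79 and 2.26 CPM in heterozygotes and had no count in wild type, which puts heterozygotes at least 32.9-fold higher than a floor of 3 counts in each wild-type library. The adenylyl cyclases, which make cAMP, split: ADCY8 (ENSDARG00000031783) was at 3.46, 2.85 and 2.78 CPM in heterozygotes and 56, 56 and 53 CPM in wild type, a log2 fold change of -4.18 (adjusted p = 5.34e-09, SE 0.15), and ADCY6 (ENSDARG00000061445) rose by 0.83 (SE 0.12). MOS (ENSDARG00000069744), the kinase that activates MAP kinase at maturation, was at 1404, 1006 and 778 CPM in heterozygotes and 596, 538 and 600.5 CPM in wild type. CCNB1 (ENSDARG00000051923), the cyclin B of maturation promoting factor, was at 4239, 3011 and 2934 CPM in heterozygotes and 2504, 2108 and 2072 CPM in wild type. Both were highest in HE 1 and did not overlap wild type. CDK1, the kinase partner of cyclin B, was at 136, 143 and 129.5 CPM in heterozygotes and 125, 117 and 121 CPM in wild type and was not called (adjusted p = 0.164).

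**Figure D5:**
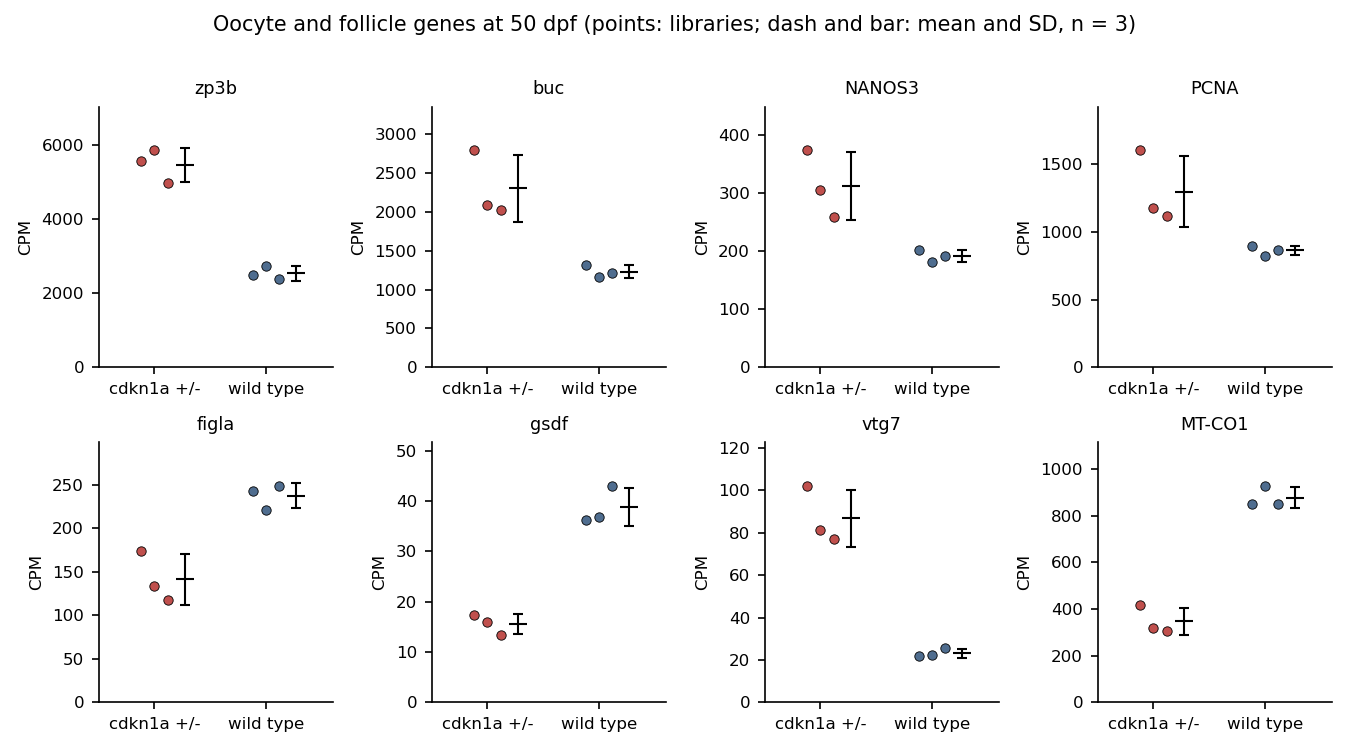
CPM of 8 oocyte and follicle genes in each library of cdkn1a +/- (left) and wild type (right), with mean and SD (n = 3), on axes that start at 0. zp3b, buc, NANOS3, PCNA and vtg7 are higher and figla, gsdf and MT-CO1 lower in every heterozygote library than in any wild-type library.

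DNA replication genes were higher more often than lower, although the list's median changed sign with the scaling: 24 of 50 tested members were higher and 4 lower (14 and 10 by library size alone, 2 lower without WT 3), with a median of 0.30 (-0.04 by library size alone). The 48.0% higher and 8.0% lower stand beside 19.6% and 21.2% of all tested genes. Over 100 CPM, 45.2% and 4.68% of genes were called. MCM6 (ENSDARG00000033231), of the replicative helicase, was at 455, 439 and 433 CPM in heterozygotes and 235, 238 and 242 CPM in wild type, a log2 fold change of 0.89 (adjusted p = 4.09e-06, SE 0.078). PCNA (ENSDARG00000054155), the sliding clamp that p21 protein binds, was at 1603, 1174 and 1119 CPM in heterozygotes and 897, 825 and 867 CPM in wild type, a log2 fold change of 0.59 (adjusted p = 0.00496, SE 0.14). CDC7, a kinase that fires replication origins, and POLD1, the catalytic subunit of DNA polymerase delta, rose by 0.68 (SE 0.084) and 0.83 (SE 0.11). GINS1 fell by 0.39 (SE 0.098). RFC1 had a log2 fold change of -0.59 (SE 0.22), or -0.32 without HE 1.

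Of the homologous recombination, Fanconi and damage checkpoint genes 14 of 40 tested members were higher and 1 lower (6 and 7 by library size alone, 3 lower without HE 3, 2 lower by DESeq2, 2 lower by RLE scaling), with a median of 0.23 (-0.11 by library size alone). FANCL (ENSDARG00000007885), the ubiquitin ligase of the Fanconi pathway and known in zebrafish for a role in ovary survival, was at 45.5, 41.5 and 41.6 CPM in heterozygotes and 6.46, 4.67 and 4.86 CPM in wild type, a log2 fold change of 3.0 (adjusted p = 2.19e-08, SE 0.13). RAD51B (ENSDARG00000037046) was at 31.6, 26.2 and 28.1 CPM in heterozygotes and 13.9, 13.4 and 13.1 CPM in wild type. The checkpoint kinase chek2 (ENSDARG00000025820) was at 164, 143 and 133 CPM in heterozygotes and 91.9, 97.1 and 94.6 CPM in wild type. WEE1, which phosphorylates and inhibits CDK1, was the 1 member that fell, with a log2 fold change of -0.76 (SE 0.11). Its oocyte relative WEE2 rose by 0.51 (SE 0.15).

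Meiotic axis and recombination genes were split, since 8 of 27 tested members were higher and 5 lower (6 and 8 by library size alone, 3 lower without HE 2). spo11, which makes the meiotic breaks, was at 23.1, 16.8 and 18.9 CPM in heterozygotes and 10.6, 9.89 and 11 CPM in wild type. SYCP3, of the synaptonemal complex, was at 3.53, 2.99 and 4.25 CPM in heterozygotes and 1.32, 1.49 and 1.43 CPM in wild type. stag3, of the meiotic cohesin, was at 28.8, 29.1 and 27.8 CPM in heterozygotes and 14.7, 14.7 and 17.5 CPM in wild type. Among those that fell, MEI4 was at 0.831, 0.246 and 0.672 CPM in heterozygotes and 2.25, 1.7 and 3.06 CPM in wild type. MND1, which helps strand exchange, was at 8.2, 11.2 and 14.1 CPM in heterozygotes and 20.7, 21 and 21.3 CPM in wild type. For mitosis and chromosome segregation 12 of 52 tested members were higher and 8 lower (4 and 20 by library size alone, 7 higher without WT 1, 5 lower without HE 2, 5 without WT 2). The mitosis shares, 23.1% higher and 15.4% lower, stand beside 19.6% and 21.2% of all tested genes. cdca8 (ENSDARG00000043137), the borealin of the chromosomal passenger complex, was at 479, 298 and 328 CPM in heterozygotes and 109, 113 and 108 CPM in wild type, a log2 fold change of 1.74 (adjusted p = 3.85e-06, SE 0.15), and AURKB, the kinase of that complex, rose by 0.76 (SE 0.13). knl1 (ENSDARG00000070239), of the outer kinetochore, was at 5.12, 8.03 and 13.2 CPM in heterozygotes and 21.9, 29.7 and 24.9 CPM in wild type, lowest in HE 1.

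Histone genes were higher more often than lower: 14 of 30 tested members were higher and 2 lower (8 and 3 by library size alone, 9 higher without HE 1, 9 without WT 3, 1 lower without HE 1, 1 without HE 2, 0 without HE 3, 1 without WT 1, 0 without WT 2, 0 without WT 3), with a median of 0.69. The 46.7% higher and 6.67% lower stand beside 19.6% and 21.2% of all tested genes. Over 100 CPM, 45.2% and 4.68% of genes were called. h3f3b.1 (ENSDARG00000068434), for a histone H3.3, was at 78.8, 62.7 and 60.1 CPM in heterozygotes and 29.6, 30.1 and 30.5 CPM in wild type, a log2 fold change of 1.16 (adjusted p = 3.39e-05, SE 0.13), and h2ax (ENSDARG00000029406) at 377, 257 and 231 CPM in heterozygotes and 151, 148 and 152 CPM in wild type. Among the members that fell was the linker histone gene H1-10, with a log2 fold change of -1.36 (SE 0.46). The oocyte linker histone h1m was at 1996, 1961 and 1944 CPM in heterozygotes and 2138, 2320 and 1877 CPM in wild type without a call. Most replication-dependent histone transcripts lack a poly(A) tail, and how RNA was selected is not given in the sources used here.

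The G1 cyclins, their kinases and inhibitors, the group to which cdkn1a belongs, fell more often than they rose: 6 of 28 tested members were higher and 15 lower (0 and 19 by library size alone, 3 higher without HE 1, 2 without HE 2, 3 without WT 1, 2 without WT 2, 2 without WT 3), with a median of -0.52. CCNE2 (ENSDARG00000098529), a cyclin E that takes cells into S phase with CDK2, was at 1.87, 2.46 and 2.23 CPM in heterozygotes and 17.5, 18 and 17 CPM in wild type, a log2 fold change of -3.0 (adjusted p = 2.09e-07, SE 0.18). CCND1 (ENSDARG00000101637), a cyclin D of early G1, was at 1.52, 1.37 and 0.855 CPM in heterozygotes and 7.17, 7.77 and 7.33 CPM in wild type. CCND2 (ENSDARG00000051748) was at 9.87, 11 and 11.4 CPM in heterozygotes and 24.5, 22.1 and 25.1 CPM in wild type. The other cyclin E gene, CCNE1, was at 374, 272 and 245 CPM in heterozygotes and 363, 389 and 361 CPM in wild type and was not called, and its kinase CDK2 rose by 0.34 (SE 0.12), a direction that turned with library size alone. Among the relatives of p21, cdkn1ca (ENSDARG00000010878), a p57-type inhibitor, was at 8.0, 5.88 and 5.01 CPM in heterozygotes and 18.2, 18.1 and 19.9 CPM in wild type, a log2 fold change of -1.57 (adjusted p = 1.33e-05, SE 0.16). The abundant p27-type gene CDKN1B (ENSDARG00000054271) was at 122, 103 and 92.7 CPM in heterozygotes and 103, 109 and 109.7 CPM in wild type, without a call. The members that rose were mostly of the E2F and retinoblastoma families, such as e2f6, TFDP1 (ENSDARG00000016304) and RB1, by 0.68, 0.58 and 0.41 on the log2 scale. Other genes of those families fell. E2F8, a repressor type of E2F, was at 2.84, 6.51 and 5.96 CPM in heterozygotes and 19.1, 19.98 and 19.7 CPM in wild type. RBL1 was at 2.21, 3.62 and 3.05 CPM in heterozygotes and 7.57, 6.76 and 7.5 CPM in wild type.

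Of the stress and damage response genes, 37.8% were lower, beside 21.2% of all tested genes: 4 of 37 tested members were higher and 14 lower (0 and 22 by library size alone, 2 higher without WT 2), with a median of -0.20. GADD45A (ENSDARG00000104571), a stress gene that restrains growth, was at 4.98, 4.58 and 4.37 CPM in heterozygotes and 41, 39.2 and 42.1 CPM in wild type, a log2 fold change of -3.13 (adjusted p = 2.19e-08, SE 0.14). GADD45B (ENSDARG00000027744) was at 7.82, 8.2 and 9.83 CPM in heterozygotes and 29.4, 28.4 and 28.3 CPM in wild type. SESN1 (ENSDARG00000020693), a sestrin, was at 9.48, 11.7 and 10.02 CPM in heterozygotes and 15.5, 14.7 and 14.9 CPM in wild type. MDM4, a relative of the ubiquitin ligase mdm2, rose by 0.52 (SE 0.12), and mdm2 was at 29.5, 32.4 and 30.6 CPM in heterozygotes and 34.3, 34.6 and 36.7 CPM in wild type without a call (adjusted p = 0.0919).

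For apoptosis and cell death 3 of 61 tested members were higher and 14 lower (0 and 26 by library size alone, 1 higher without HE 1, 1 without HE 2, 1 without WT 1, 1 without WT 2, 1 without WT 3), with a median of -0.14. The apoptosome genes APAF1 and CASP9 rose by 0.56 (SE 0.13) and 0.39 (SE 0.14), and mcl1a, a survival protein of the BCL2 family, by 0.42 (SE 0.15), or 0.25 without HE 1. CASP9 and mcl1a passed the threshold narrowly (adjusted p = 0.0485 and 0.0458 in edgeR's quasi-likelihood test). Their rises are close in size to the shift of -0.329 by library size alone. Other caspase genes fell: CASP6 (ENSDARG00000093405) was at 0.0692, 0.176 and 0 CPM in heterozygotes and 4.21, 4.91 and 5.39 CPM in wild type, CASP2 (ENSDARG00000062052) at 20.3, 20.1 and 21.3 CPM in heterozygotes and 35.5, 37 and 37.9 CPM in wild type. casp8 (ENSDARG00000058325), of the death receptor pathway, was at 5.4, 7.14 and 7.3 CPM in heterozygotes and 13.9, 13.7 and 14.6 CPM in wild type. BAX, a pore-forming protein of the BCL2 family, was at 38.4, 29.1 and 32.5 CPM in heterozygotes and 37.3, 34.2 and 38.8 CPM in wild type. BCL2L1 was at 42.9, 44.2 and 45.9 CPM in heterozygotes and 45.3, 46.6 and 45.6 CPM in wild type, and both genes had overlapping groups and no call.

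Ribosomal protein genes were called in 1 direction with TMM scaling, and their count moved with the scaling and with single libraries: 56 of 88 tested members were higher and 0 lower (10 and 5 by library size alone, 27 higher without HE 1, 30 without WT 1, 25 without WT 2, 18 without WT 3, 1 lower without HE 3, 32 higher with the 50 dpf libraries alone, 1 lower with the 50 dpf libraries alone, 1 lower with the replicate block, 2 lower at an unadjusted p under 0.05 in edgeR and 0 called lower by DESeq2), with a median of 0.48. RPL31 (ENSDARG00000053365) was at 865, 578 and 499 CPM in heterozygotes and 293, 276 and 229 CPM in wild type, a log2 fold change of 1.28 (adjusted p = 2.26e-04, SE 0.19), and RPL12 (ENSDARG00000006691) at 2195, 1520 and 1387 CPM in heterozygotes and 937, 893 and 846 CPM in wild type. Their sum was 41100 to 66000 CPM in heterozygotes, highest in HE 1, and 33700 to 36900 CPM in wild type. Cytosolic tRNA synthetases were also called higher more often than lower with TMM scaling, in that 7 of 17 tested members were higher and 2 lower (1 and 5 by library size alone, 1 lower without HE 1, 1 without WT 1, 1 without WT 2, 1 without WT 3). The 41.2% higher and 11.8% lower stand beside 19.6% and 21.2% of all tested genes. Over 100 CPM, 45.2% and 4.68% of genes were called. RARS1, for arginine, rose by 0.71 (SE 0.11), while GARS1, for glycine, fell by 0.38 (SE 0.087).

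Chaperones and enzymes of the endoplasmic reticulum, where secreted proteins such as the egg coat fold, were higher more often than lower: 27 of 72 tested members were higher and 10 lower (15 and 13 by library size alone), with a median of 0.19 (-0.14 by library size alone). The 37.5% higher and 13.9% lower stand beside 19.6% and 21.2% of all tested genes. Over 100 CPM, 45.2% and 4.68% of genes were called. HSPA5 (ENSDARG00000103846), the main chaperone of this compartment, was at 2491, 2558 and 2658 CPM in heterozygotes and 1446, 1347 and 1398 CPM in wild type, a log2 fold change of 0.88 (adjusted p = 4.63e-05, SE 0.10). SEL1L (ENSDARG00000004581), of the degradation machinery, was at 161, 158 and 173 CPM in heterozygotes and 96.4, 100.3 and 105 CPM in wild type, and CANX, the chaperone calnexin, rose by 0.43 (SE 0.086). The disulphide isomerase PDIA6 (ENSDARG00000009001) ran the other way, at 161, 158 and 163 CPM in heterozygotes and 251, 254 and 262 CPM in wild type. Among heat shock proteins of all compartments 18 of 78 tested members were higher and 21 lower (6 and 34 by library size alone). Their shares, 23.1% and 26.9%, stand beside 19.6% and 21.2% of all tested genes. HSP90B1 of the endoplasmic reticulum rose by 0.59 (SE 0.098), whereas the stress-induced hsp70.1 and DNAJB4 had log2 fold changes of -1.15 (SE 0.15) and -3.65 (SE 0.30).

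Proteasome subunits, which degrade ubiquitin-tagged proteins, were called higher more often than lower with TMM scaling: 17 of 48 tested members were higher and 5 lower (5 and 15 by library size alone, 8 higher without WT 2, 3 lower without HE 1, 3 without HE 2, 3 without HE 3, 2 without WT 2, 3 without WT 3), with a median of 0.22 (-0.12 by library size alone). The 35.4% higher and 10.4% lower stand beside 19.6% and 21.2% of all tested genes. Over 100 CPM, 45.2% and 4.68% of genes were called. PSMB2 (ENSDARG00000031511) was at 230.2, 178 and 145 CPM in heterozygotes and 104, 100.2 and 104 CPM in wild type and PSMD3 rose by 0.70 (SE 0.12). The members that fell included the immunoproteasome genes. PSMB9 (ENSDARG00000000656) was at 1.07, 1.3 and 1.53 CPM in heterozygotes and 12.5, 10.6 and 11.6 CPM in wild type, a log2 fold change of -3.15 (adjusted p = 4.48e-07, SE 0.21), PSME1, of the immune-type activator, at 0.277, 0.0704 and 0.244 CPM in heterozygotes and 4.52, 4.65 and 4.84 CPM in wild type, and PSMB10 fell by 0.51 (SE 0.15). These genes are also typical of leukocytes, whose summed markers were lower in heterozygotes as given above. Of those markers 5 of 16 were called lower, 31.2% beside 33.1% of all genes at a mean of 1 to 10 CPM. Another 4 had a log2 fold change above 0, and ptprc was not called. The part of leukocytes was not tested.

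Calls among genes of oxidative phosphorylation were mostly higher for the nuclear genes, except by library size alone, and lower for the genes of the mitochondrial genome. Of the nuclear genes 28 of 90 tested members were higher and 4 lower (5 and 18 by library size alone, 16 higher without HE 1, 17 without WT 1, 9 without WT 2, 15 without WT 3), with a median of 0.30 (-0.06 by library size alone). The 31.1% higher and 4.44% lower stand beside 19.6% and 21.2% of all tested genes. Over 100 CPM, 45.2% and 4.68% of genes were called. UQCRFS1 (ENSDARG00000007745), of complex III, was at 619.7, 479 and 408 CPM in heterozygotes and 298, 304 and 299 CPM in wild type. UQCRC1 (ENSDARG00000052304) was at 177, 160.4 and 170.1 CPM in heterozygotes and 112, 111 and 121 CPM in wild type. Of the 13 protein-coding genes of the mitochondrial genome, 11 were lower, by library size alone too, with a median of -1.64. MT-CO1 (ENSDARG00000063905) was at 416, 318 and 308 CPM in heterozygotes and 852, 929.7 and 853 CPM in wild type, a log2 fold change of -1.34 (adjusted p = 2.02e-05, SE 0.14), and MT-CYB (ENSDARG00000063924) at 83.9, 82.8 and 78.5 CPM in heterozygotes and 170.4, 192 and 199 CPM in wild type. Mitochondrial genes took 0.0683% to 0.0765% of the counts in heterozygotes and 0.201% to 0.236% in wild type (exact two-sided permutation p = 0.1, the smallest possible). How mitochondrial reads were treated in alignment and counting is not given in the sources used here.

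Vitellogenins, the yolk precursors made chiefly in liver, included genes that rose, while the liver markers above were lower. Of vitellogenins, their receptors and uptake proteins 7 of 27 tested members were higher and 2 lower (4 and 3 by library size alone), with a median of 0.15 (-0.17 by library size alone). vtg7 (ENSDARG00000092419) was at 102, 81.5 and 77.2 CPM in heterozygotes and 21.9, 22.2 and 25.6 CPM in wild type, a log2 fold change of 1.91 (adjusted p = 2.10e-06, SE 0.15), and vtg6 (ENSDARG00000016825) at 85.8, 70.8 and 69.8 CPM in heterozygotes and 22.8, 20.7 and 24.3 CPM in wild type. The most counted, vtg1, was at 365, 301 and 283 CPM in heterozygotes and 265, 233 and 302 CPM in wild type with overlapping groups and no call. Vitellogenin genes of the tandem cluster are near-identical, so that reads may be shared among them. lrp13, a receptor of the low-density lipoprotein family in fish ovary, rose by 0.44 (SE 0.11), and VLDLR was at 224, 276 and 318 CPM in heterozygotes and 225, 250.4 and 265 CPM in wild type without a call.

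Lysosomal genes, which process yolk in the oocyte, were split, in that 17 of 52 tested members were higher and 11 lower (7 and 16 by library size alone, 11 higher without WT 2), with a median of 0.18 (-0.15 by library size alone). CTSA (ENSDARG00000098114) was at 400.1, 332 and 309 CPM in heterozygotes and 197, 179 and 203 CPM in wild type, and HEXA rose by 0.64 (SE 0.10). CTSK (ENSDARG00000040251), a collagen-degrading cathepsin, was at 1.73, 2.15 and 2.11 CPM in heterozygotes and 8.97, 10.1 and 10.1 CPM in wild type, and ATP6V0A1 (ENSDARG00000015174), of the proton pump, fell by 2.36 (SE 0.18).

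In sterol synthesis and cholesterol handling 9 of 51 tested members were higher and 20 lower (5 and 28 by library size alone), with a median of -0.16. The pathway itself moved both ways: MVD (ENSDARG00000099336) and MVK (ENSDARG00000004130), of the mevalonate part, were at 21.3, 21 and 20.1 CPM in heterozygotes and 9.71, 10.2 and 7.98 CPM in wild type, and at 63.4, 51.9 and 48 CPM in heterozygotes and 30.2, 27.1 and 29.2 CPM in wild type. LSS (ENSDARG00000061274), lanosterol synthase, was at 3.39, 3.87 and 3.12 CPM in heterozygotes and 24.7, 24.1 and 22.3 CPM in wild type, a log2 fold change of -2.77 (adjusted p = 5.68e-08, SE 0.14). The members that fell included plasma apolipoproteins. apoa1b (ENSDARG00000101324) was at 2.28, 4.54 and 3.48 CPM in heterozygotes and 31.3, 38.6 and 27.1 CPM in wild type, and it is also on the liver list, which was lower as a whole.

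In steroid hormone synthesis 9 of 30 tested members were higher and 6 lower (2 and 11 by library size alone, 5 higher without WT 2, 5 without WT 3), with a median of 0.07 (-0.26 by library size alone). CYP11A1 (ENSDARG00000002347), which cuts cholesterol to pregnenolone, was at 584, 509 and 494 CPM in heterozygotes and 378, 353 and 374 CPM in wild type. CYP17A1 (ENSDARG00000033566) was at 173, 167 and 168 CPM in heterozygotes and 128, 126 and 129.5 CPM in wild type. Of the dehydrogenases, hsd3b1 (ENSDARG00000069926) was at 0.935, 0.704 and 0.733 CPM in heterozygotes and 3.31, 3.6 and 3.63 CPM in wild type. hsd17b1 (ENSDARG00000027469), which makes potent oestrogens, was at 0.554, 1.44 and 1.25 CPM in heterozygotes and 4.49, 4.71 and 3.76 CPM in wild type, both lower without overlap. The aromatase CYP19A1 was at 0.969, 0.563 and 0.489 CPM in heterozygotes and 0.839, 0.774 and 0.44 CPM in wild type. The cholesterol carrier STAR was at 0.554, 0.282 and 0.458 CPM in heterozygotes and 0.313, 0.268 and 0.587 CPM in wild type, both without a call. CBR1 (ENSDARG00000036587), a carbonyl reductase, was at 13.9, 17.6 and 17.4 CPM in heterozygotes and 3.01, 3.16 and 3.04 CPM in wild type, a log2 fold change of 2.41 (adjusted p = 1.01e-06, SE 0.18).

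Lipoxygenase and prostaglandin genes were split, in that 9 of 31 tested members were higher and 7 lower (6 and 10 by library size alone). alox5b.3 (ENSDARG00000069966), a 5-lipoxygenase, was at 201, 201 and 202 CPM in heterozygotes and 4.33, 5.75 and 6.05 CPM in wild type, a log2 fold change of 5.23 (adjusted p = 5.78e-09, SE 0.20). The cyclooxygenases ptgs1 and PTGS2 (ENSDARG00000010276), which make prostaglandin H2, rose by 1.37 (SE 0.14) and 1.04 (SE 0.20). Of the synthases that act on that product, ptgdsb.1, for prostaglandin D, fell, at 7.65, 6.48 and 5.31 CPM in heterozygotes and 19.5, 19.1 and 20.3 CPM in wild type. PTGES, for prostaglandin E, fell too, at 15.1, 10.8 and 8.37 CPM in heterozygotes and 26.8, 27.6 and 27.3 CPM in wild type.

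For amino acid transport and the ATF4 stress response 13 of 57 tested members were higher and 20 lower (6 and 28 by library size alone), with a median of -0.11. The 2 genes of proline synthesis enzyme PYCR1 moved in opposite directions. pycr1b (ENSDARG00000098639) was at 349, 304 and 307 CPM in heterozygotes and 149, 152 and 139 CPM in wild type, a log2 fold change of 1.13 (adjusted p = 5.23e-06, SE 0.10), and pycr1a (ENSDARG00000102254) at 1.18, 1.41 and 1.89 CPM in heterozygotes and 8.09, 8.19 and 7.45 CPM in wild type, a log2 fold change of -2.4 (adjusted p = 1.96e-05, SE 0.26). PHGDH, which starts serine synthesis, rose by 0.64 (SE 0.11). slc3a2a (ENSDARG00000036427), the heavy chain of amino acid exchangers, was at 6.33, 5.95 and 6.63 CPM in heterozygotes and 20.6, 21.3 and 21.9 CPM in wild type, and ASNS, a classic ATF4 target, was at 89.2, 69 and 68.1 CPM in heterozygotes and 71.4, 70.2 and 75.1 CPM in wild type without a call. Over all solute carriers 65 of 327 tested members were higher and 80 lower (29 and 127 by library size alone, 40 higher without WT 2). These shares, 19.9% and 24.5%, are near those of all tested genes. SLC37A2, a sugar phosphate exchanger, rose by 0.93 (SE 0.085) and slc23a3 by 3.73 (SE 0.33), while SLC25A48, of the mitochondrial carriers, fell by 2.8 (SE 0.20).

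Genes of the somatic follicle cells were called lower more often than higher. In this list 3 of 39 tested members were higher and 15 lower (1 and 18 by library size alone, 1 higher without HE 1, 1 without WT 2), with a median of -0.71. The 38.5% lower stand beside 21.2% of all tested genes and 33.1% of those at a mean of 1 to 10 CPM. FOXL2 (ENSDARG00000068417), the transcription factor of granulosa cells, was at 1.28, 0.739 and 0.825 CPM in heterozygotes and 5.5, 6.82 and 6.36 CPM in wild type, a log2 fold change of -2.71 (adjusted p = 5.29e-05, SE 0.33). gsdf (ENSDARG00000075301), a somatic growth factor of the fish gonad, was at 17.3, 15.9 and 13.5 CPM in heterozygotes and 36.3, 36.9 and 43.1 CPM in wild type, a log2 fold change of -1.32 (adjusted p = 6.65e-05, SE 0.16). HEY1 (ENSDARG00000070538), a target of Notch, was at 1.56, 2.57 and 2.17 CPM in heterozygotes and 13.5, 11.7 and 11.8 CPM in wild type. The inhibin subunit inha was at 0.45, 1.2 and 1.44 CPM in heterozygotes and 2.42, 2.89 and 2.82 CPM in wild type, and the anti-Müllerian hormone gene amh was at 0.727, 1.34 and 1.19 CPM in heterozygotes and 1.25, 1.1 and 1.06 CPM in wild type without a call. The summed CPM of stromal fibroblast markers was also lower in these heterozygote libraries, and the share of somatic cells in each library was not measured. The members that rose were SOX9 (ENSDARG00000043923), TCF21 and zglp1, by 0.86, 0.90 and 0.52 on the log2 scale. zglp1 was at 1129, 804 and 666 CPM in heterozygotes and 602, 591 and 614 CPM in wild type, and the log2 fold change of zglp1 without HE 1 was 0.28. Summed over the list the level was 837 to 1310 CPM in heterozygotes and 826 to 862 CPM in wild type, mostly from zglp1. This sum was therefore not lower in heterozygotes, and which cells the zglp1 counts came from was not tested.

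Receptors for gonadotropins and steroid hormones had no member called higher: 0 of 19 tested members were higher and 6 lower (0 and 10 by library size alone, 1 higher without HE 1, 0 higher at an unadjusted p under 0.05 in edgeR and 0 called higher by DESeq2), with a median of -0.48. Without a call, 3 members had a log2 fold change above 0. The 31.6% lower stand beside 21.2% of all tested genes and 33.1% of those at a mean of 1 to 10 CPM. The progesterone receptor gene PGR fell, at 0.623, 0.986 and 0.886 CPM in heterozygotes and 1.63, 1.34 and 1.59 CPM in wild type. The more abundant of the ESR2 oestrogen receptor genes (ENSDARG00000016454) was at 20.2, 18.8 and 18.2 CPM in heterozygotes and 21.1, 19.4 and 20.8 CPM in wild type, without a call. For Kit, EGF and FGF ligands and receptors 8 of 41 tested members were higher and 17 lower (5 and 20 by library size alone), with a median of -0.59. The ligands egf (ENSDARG00000052739), at 1.49, 0.422 and 0.947 CPM in heterozygotes and 10.2, 8.76 and 9.55 CPM in wild type, and TGFA (ENSDARG00000053939), at 10.3, 9.5 and 11 CPM in heterozygotes and 19.7, 19.9 and 19.2 CPM in wild type, both fell. kitlga (ENSDARG00000070917), a Kit ligand of follicle cells, was at 0.381, 0.211 and 0 CPM in heterozygotes and 2.15, 1.88 and 2.07 CPM in wild type. The Kit receptor gene KIT (ENSDARG00000043317) was at 0.865, 0.317 and 1.41 CPM in heterozygotes and 0.428, 0.119 and 0.257 CPM in wild type, with overlapping groups and a log2 fold change of 1.63 (adjusted p = 0.0368, SE 0.57). The platelet-derived growth factor gene PDGFA (ENSDARG00000110069) rose, at 3.98, 3.31 and 2.78 CPM in heterozygotes and 0.197, 0.149 and 0.458 CPM in wild type.

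TGF-beta family ligands and antagonists, through which oocyte and follicle cells signal to each other, went both ways: 9 of 36 tested members were higher and 12 lower (4 and 16 by library size alone), with a median of -0.61. gdf3 (ENSDARG00000037995), a nodal-related ligand stored in the fish egg, was at 1355, 1019 and 1351 CPM in heterozygotes and 467, 588 and 629 CPM in wild type, a log2 fold change of 1.15 (adjusted p = 7.96e-04, SE 0.20). With TMM scaling GDF9 and bmp15 rose by 0.35 (SE 0.09) and 0.37 (SE 0.081). These rises of GDF9 and bmp15 are close in size to the shift of -0.329 by library size alone. BMP4 (ENSDARG00000019995) was at 1.7, 1.09 and 1.77 CPM in heterozygotes and 6.22, 5.21 and 5.19 CPM in wild type, GDF10 (ENSDARG00000095378) at 0.935, 0.739 and 0.825 CPM in heterozygotes and 3.96, 4.35 and 4.53 CPM in wild type. BAMBI (ENSDARG00000055381), a decoy receptor, was at 24.6, 20.3 and 20.03 CPM in heterozygotes and 47.7, 45.4 and 46 CPM in wild type, all lower. Among receptors and Smads 5 of 33 tested members were higher and 8 lower (1 and 13 by library size alone, 5 lower without HE 2, 5 without WT 1, 5 without WT 2, 5 lower with the replicate block). The type I receptor bmpr1ba rose by 0.49 (SE 0.11) and the BMP target ID2 by 0.80 (SE 0.097). BMPR2 (ENSDARG00000011941) and ACVR2B (ENSDARG00000103108), type II receptors, had log2 fold changes of -2.35 (SE 0.36) and -1.48 (SE 0.27).

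Wnt, Notch and Hedgehog genes were called lower more often than higher: 4 of 61 tested members were higher and 21 lower (1 and 30 by library size alone), with a median of -0.52. The 34.4% lower stand beside 21.2% of all tested genes and 33.1% of those at a mean of 1 to 10 CPM. Among the ligands, WNT4 was at 1.14, 0.739 and 1.25 CPM in heterozygotes and 2.12, 2.44 and 2.44 CPM in wild type. ihhb (ENSDARG00000058815), a Hedgehog ligand, was at 3.22, 2.25 and 2.56 CPM in heterozygotes and 5.43, 5.84 and 4.82 CPM in wild type. The Wnt enhancer RSPO1 was at 1.52, 2.53 and 2.38 CPM in heterozygotes and 3.26, 3.75 and 3.61 CPM in wild type. The Wnt receptors fzd6 and LRP6 rose by 0.70 (SE 0.14) and 0.80 (SE 0.17). In insulin, IGF, PI3K and mTOR signalling 7 of 52 tested members were higher and 12 lower (2 and 26 by library size alone, 4 higher without WT 2, 7 lower without HE 2, 6 without WT 3). IGFBP3 (ENSDARG00000099144), which binds IGF outside cells, was at 5.09, 6.09 and 6.32 CPM in heterozygotes and 18, 17.8 and 18.1 CPM in wild type, a log2 fold change of -1.62 (adjusted p = 4.79e-07, SE 0.11). IGF1R (ENSDARG00000027423), a receptor of the pathway, was at 7.55, 8.38 and 6.35 CPM in heterozygotes and 2.93, 3.28 and 4.29 CPM in wild type.

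Among peptide hormone and cytokine receptors and their partners 5 of 41 tested members were higher and 14 lower (4 and 16 by library size alone), with a median of -0.46. The 34.1% lower stand beside 21.2% of all tested genes and 33.1% of those at a mean of 1 to 10 CPM. crlf1a (ENSDARG00000024365), a secreted partner of IL6-type cytokines, was at 1.94, 1.23 and 1.8 CPM in heterozygotes and 28.8, 30.1 and 28.5 CPM in wild type, a log2 fold change of -4.13 (adjusted p = 9.98e-09, SE 0.17). The receptor of that cytokine family lifra (ENSDARG00000098857) ran the other way, at 19.5, 16.5 and 14.9 CPM in heterozygotes and 3.57, 3.13 and 2.99 CPM in wild type, as did cntfr at 2.46, 2.43 and 3.69 CPM in heterozygotes and 1.35, 1.28 and 1.04 CPM in wild type. tafa3b (ENSDARG00000020292), a secreted chemokine-like protein, was at 23.2, 20.8 and 19.8 CPM in heterozygotes and 1.32, 1.1 and 1.12 CPM in wild type, a log2 fold change of 4.16 (adjusted p = 5.34e-09, SE 0.15). For vascular growth factors and receptors 2 of 16 tested members were higher and 3 lower (2 and 7 by library size alone). FLT4 (ENSDARG00000104453), the VEGF-C receptor known from lymphatic vessels, was at 38.9, 42.5 and 39.6 CPM in heterozygotes and 3.5, 2.83 and 3.43 CPM in wild type, a log2 fold change of 3.62 (adjusted p = 5.34e-09, SE 0.12). The co-receptors NRP1 and NRP2 (ENSDARG00000038446) had log2 fold changes of 1.55 (SE 0.17) and -0.76 (SE 0.20). Among the endothelial markers, the VEGF receptor gene kdrl was at 2.04, 1.97 and 2.44 CPM in heterozygotes and 2.71, 1.97 and 2.16 CPM in wild type without a call, the junction gene cdh5 fell by 2.41 (SE 0.45) and the transcription factor gene sox18 rose by 1.01 (SE 0.20).

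Collagen and metalloproteinase genes were called lower more often than higher. Lower calls made up 38.0% and 32.7% of these 2 lists. Of all tested genes 21.2% were lower, and of those at a mean of 1 to 10 CPM 33.1%. Of collagens 3 of 50 tested members were higher and 19 lower (2 and 23 by library size alone, 5 higher without HE 1, 5 without WT 3), with a median of -0.78 (-0.70 with genes at 0 in a group set to their bound). COL12A1 (ENSDARG00000078322) was at 8.03, 7.43 and 11.1 CPM in heterozygotes and 32.4, 33 and 31.5 CPM in wild type. col28a2a (ENSDARG00000076321) was at 0.104, 0.352 and 0.244 CPM in heterozygotes and 11.6, 10.6 and 11.6 CPM in wild type. Of matrix metalloproteinases, ADAM and ADAMTS proteases 4 of 52 tested members were higher and 17 lower (3 and 21 by library size alone), with a median of -0.87. MMP16 (ENSDARG00000058876), a membrane-bound protease, was at 2.56, 1.48 and 1.62 CPM in heterozygotes and 9.03, 9.89 and 9.61 CPM in wild type. ADAMTS1 (ENSDARG00000103519) was at 1.45, 2.01 and 1.8 CPM in heterozygotes and 5.91, 6.31 and 5.81 CPM in wild type, whereas ADAMTS15 (ENSDARG00000033544) rose, at 8.34, 7.71 and 7.7 CPM in heterozygotes and 2.62, 2.38 and 2.66 CPM in wild type. Of integrins and laminins 8 of 42 tested members were higher and 10 lower (4 and 18 by library size alone, 4 higher without HE 2, 5 without WT 1, 5 without WT 2), shares near those of all tested genes (19.6% and 21.2%). ITGB6 (ENSDARG00000002494), an epithelial integrin, was at 26.6, 22.7 and 20.3 CPM in heterozygotes and 3.57, 4.26 and 3.12 CPM in wild type. LAMA5, a basement membrane laminin, was at 4.43, 4.4 and 5.68 CPM in heterozygotes and 10.7, 12.7 and 12.9 CPM in wild type. The fibroblast markers summed to 104 to 114 CPM in heterozygotes and 146 to 153 CPM in wild type, and their part in the matrix genes was not tested.

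For cadherins and protocadherins 3 of 44 tested members were higher and 14 lower (1 and 20 by library size alone, 1 higher without WT 1, 1 without WT 2), with a median of -0.60. The 31.8% lower stand beside 21.2% of all tested genes and 33.1% of those at a mean of 1 to 10 CPM. CDH11 (ENSDARG00000021442), a mesenchymal cadherin, was at 0.139, 0.176 and 0.122 CPM in heterozygotes and 3.24, 3.48 and 3.23 CPM in wild type. Of claudins and other tight junction genes 7 of 34 tested members were higher and 7 lower (6 and 11 by library size alone, 4 lower without WT 2, 4 without WT 3). These shares, 20.6% in each direction, are near those of all tested genes. Occludin, oclna, was at 520.2, 443 and 396 CPM in heterozygotes and 316, 283 and 311 CPM in wild type. The scaffold TJP1 was at 13.4, 18.1 and 22.4 CPM in heterozygotes and 30.9, 29.9 and 29.6 CPM in wild type. Among connexins and pannexins 5 of 19 tested members were higher and 2 lower (3 and 3 by library size alone, 3 higher without WT 3, 1 lower without HE 3, 1 without WT 3, 3 higher with the 50 dpf libraries alone). PANX3 (ENSDARG00000004627), a pannexin channel, was at 44.3, 41.1 and 34.6 CPM in heterozygotes and 9.61, 9.23 and 9.1 CPM in wild type, a log2 fold change of 2.1 (adjusted p = 1.53e-07, SE 0.12). Of the ephrins, semaphorins and plexins, cues for cell guidance, 12 of 67 tested members were higher and 24 lower (10 and 31 by library size alone). ephb6 (ENSDARG00000057729) was at 18.4, 16.8 and 16.2 CPM in heterozygotes and 5.02, 4.67 and 4.35 CPM in wild type. PLXNB1 (ENSDARG00000017211), a semaphorin receptor, was at 0.346, 0.387 and 0.122 CPM in heterozygotes and 10.4, 9.89 and 11 CPM in wild type. sema7a had no count in heterozygotes and 3.42, 3.33 and 3.85 CPM in wild type, at least 35.2-fold lower in heterozygotes.

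Myosin genes were called lower more often than higher. Of the myosins 3 of 42 tested members were higher and 16 lower (2 and 22 by library size alone), with a median of -0.44. The 38.1% lower stand beside 21.2% of all tested genes and 33.1% of those at a mean of 1 to 10 CPM. MYO10 (ENSDARG00000017004), the myosin of filopodia, was at 1.94, 2.36 and 1.89 CPM in heterozygotes and 28.8, 33.7 and 29.6 CPM in wild type, a log2 fold change of -3.9 (adjusted p = 5.34e-09, SE 0.13), and MYO5C (ENSDARG00000104235) at 0.554, 0.246 and 0.183 CPM in heterozygotes and 6.84, 7.27 and 8.0 CPM in wild type. MYO16 rose by 0.85 (SE 0.11). For kinesins and dyneins 7 of 56 tested members were higher and 12 lower (1 and 29 by library size alone, 4 higher without WT 2), and the 21.4% lower are near the share of all tested genes. kif18a, of the mitotic spindle, rose by 0.52 (SE 0.13), and DYNLT2B, a dynein light chain, fell by 1.31 (SE 0.14). Of the keratins 2 of 16 tested members were higher and 5 lower (1 and 5 by library size alone, 1 higher without HE 1, 1 without HE 2, 1 without WT 1, 1 without WT 2, 1 without WT 3).

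Homeobox Hox genes, which pattern the body axis, had a median log2 fold change of -2.18. Of these genes 2 of 24 tested members were higher and 16 lower (2 and 18 by library size alone). hoxc11b (ENSDARG00000102631) was at 0.588, 0.317 and 0.58 CPM in heterozygotes and 12.2, 13.9 and 12.9 CPM in wild type, a log2 fold change of -4.7 (adjusted p = 4.48e-07, SE 0.32). HOXD9 (ENSDARG00000059274) was at 1.11, 1.51 and 1.96 CPM in heterozygotes and 9.48, 9.17 and 9.35 CPM in wild type. HOXD12 (ENSDARG00000059263) was at 1.21, 1.58 and 1.5 CPM in heterozygotes and 7.86, 7.27 and 7.54 CPM in wild type. The 2 that rose were HOXB2 and HOXC10, at averages of 1.68 ± 0.162 and 0.81 ± 0.202 CPM in heterozygotes against 0.636 ± 0.0538 and 0.0814 ± 0.0588 CPM in wild type (SD, n = 3 each). Summed over 48 Hox genes the level was 19.2 to 23.5 CPM in heterozygotes and 73.5 to 74.4 CPM in wild type.

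Enzymes that modify DNA and histones were called about as often as all tested genes: 12 of 64 tested members were higher and 11 lower (1 and 24 by library size alone, 7 higher without WT 2). tet3 (ENSDARG00000062646), which oxidises methylated cytosine, was at 0.623, 0.986 and 0.702 CPM in heterozygotes and 5.72, 6.7 and 4.86 CPM in wild type, a log2 fold change of -2.9 (adjusted p = 4.53e-06, SE 0.26). HDAC6, a cytoplasmic deacetylase, was at 12, 12.9 and 13.4 CPM in heterozygotes and 26.2, 25.4 and 27.2 CPM in wild type. EHMT1, a histone H3 methyltransferase, was at 47.6, 47.4 and 56.4 CPM in heterozygotes and 25.6, 31 and 27.8 CPM in wild type. DNMT1, which maintains DNA methylation, was at 1328, 1440 and 1448 CPM in heterozygotes and 1251, 1191 and 1227 CPM in wild type and was not called.

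Channel genes and surface receptors held single members with wide differences. Among sodium, calcium and potassium channels 17 of 89 tested members were higher and 17 lower (11 and 25 by library size alone). These shares, 19.1% in each direction, are near those of all tested genes. scn1laa (ENSDARG00000086819), a voltage-gated sodium channel, was at 75.7, 71.5 and 68.4 CPM in heterozygotes and 11.3, 11.3 and 11.8 CPM in wild type, a log2 fold change of 2.65 (adjusted p = 5.34e-09, SE 0.096). CACNA1G, a low-voltage calcium channel, was at 6.33, 8.41 and 8.21 CPM in heterozygotes and 3.31, 3.33 and 3.91 CPM in wild type. The potassium channel genes kcnq1.2 and kcnq1.1 had log2 fold changes of 1.18 (SE 0.14) and -2.4 (SE 0.37). Of adhesion GPCRs 5 of 27 tested members were higher and 6 lower (5 and 9 by library size alone, 3 lower without WT 3), shares of 18.5% and 22.2% that are near those of all tested genes. ADGRL2, a latrophilin, was at 27.2, 34 and 37.9 CPM in heterozygotes and 16.9, 18.6 and 19.3 CPM in wild type. For DUSP and receptor-type protein phosphatases 6 of 40 tested members were higher and 14 lower (2 and 20 by library size alone, 3 higher without WT 1, 3 without WT 2), and PTPRG (ENSDARG00000060123) was at 3.63, 6.9 and 6.93 CPM in heterozygotes and 20.4, 20.2 and 21.3 CPM in wild type.

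Of the TRIM proteins, ubiquitin ligases expanded in fish, 15 of 68 tested members were higher and 22 lower (9 and 29 by library size alone). TRIM9 (ENSDARG00000039123) was at 78.8, 62.7 and 49 CPM in heterozygotes and 19.6, 19.1 and 19.6 CPM in wild type. trim35-34 (ENSDARG00000022271) was at 0.0692, 0.352 and 0.305 CPM in heterozygotes and 10.2, 8.64 and 9.68 CPM in wild type. Of the NLR family 2 of 11 tested members were higher and 5 lower (2 and 7 by library size alone), and NOD2, a sensor of bacterial cell walls, was at 5.47, 5.35 and 6.17 CPM in heterozygotes and 2.65, 1.94 and 2.37 CPM in wild type. Of the opsins 1 of 8 tested members was higher and 2 lower (1 and 2 by library size alone, 2 higher without HE 1, 1 lower without HE 1, 1 without WT 1, 1 without WT 2, 1 without WT 3), and the one that rose, opn7d, was at 11.1, 8.55 and 10.2 CPM in heterozygotes and 5.59, 5.87 and 5.94 CPM in wild type.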

How the data were processed

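RNA from primary growth follicles, extracted with TRIzol per the labels' protocols, was made into libraries with the NEBNext Ultra II Directional kit, which keeps the strand. The submitters' processing notes name bcl2fastq, FastQC 0.11.5, HISAT2, StringTie and DESeq2, and the genome build GRCz11. The annotation release, the RNA selection and the strand setting are not given in the sources used here. The deposited raw table holds whole-number estimated counts per gene, and the way they were summed is not given in the sources used here. The deposited normalized table was treated as a signal per gene scaled by the authors, and served for an alternative alone. No column was of a sample outside the series.

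The counts of all 12 libraries were fitted together with edgeR 4.0.16 (R 4.3.3), with TMM scaling, filterByExpr on the 4 groups, 1 mean per group and the quasi-likelihood F test. The contrasts were heterozygote less wild type at 50 dpf, the same at 8 mpf, and the effect at 50 dpf less that at 8 mpf. The Benjamini-Hochberg adjustment covered all 18834 tested genes, and every adjusted p is from this fit. Standard errors (SE) are the absolute log2 fold change over the root of F. limma 3.58.1 and DESeq2 1.42.0 served for alternatives. The fit was tested on simulated data for the 50 dpf comparison, with 18834 genes of which 50 each were changed by a known log2 fold (genes expected above 20 counts in every library): it called 45 at -2, 39 at -1, 42 at 1 and 48 at 2, and 3 unchanged genes. In this simulation all other genes had the same mean in all groups, and as many genes were raised as lowered. It therefore cannot speak for data with a shift in scaling as seen here, nor for the recovery of changes in genes with fewer counts. Library summaries were compared with exact permutation tests, for which 3 against 3 libraries allow no p below 0.1. The floor for genes with no count in a group was 3 counts per library, which covers counting error only.

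Members and lists were chosen with earlier results of these data known. Symbols came from a table of gene names (28988 of 32057 IDs matched, 5966 of them with a symbol that other IDs share), so IDs are given with the symbols that matter. Values under a shared symbol, such as RXFP2, ADM, ZDHHC16 or SH2D3C, are of the ID given and do not cover other IDs of that symbol. Lists were matched by symbol exactly, then in capitals, then in capitals without a paralog letter. The last 2 steps were added because 12464 symbols were in capitals, and 100 of 1537 listed symbols stayed unmatched. KRTCAP2, which is no keratin, was taken off the keratin list after values were seen. Named genes were cdkn1a, the 10 largest called changes in each direction (log2 fold change of at least 1, no overlap, at least 5 CPM in the higher group, a gene name other than a clone), up to 3 called members per list and direction by smallest p with at least 2 CPM, the 8 genes with the largest share of counts, and list members whose role belonged beside a named one. Some genes of the lists are not reported here. A search of promoters for motifs was not run, since no promoter sequences were at hand.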

Additional observations from a re-analysis of the deposited data

Results flagged for a closer look

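The effect of genotype differed between 50 dpf and 8 mpf for cdkn1a and for 12 of the 20 genes with the largest changes, by edgeR's quasi-likelihood test of the difference of both effects. Over all tested genes this difference was called for 2548 (13.5%). Among genes called at 50 dpf it was called for 841 of the 3696 higher and 1019 of the 3995 lower. The 20 genes were picked by the size of their change at 50 dpf, which enters the difference. Their number is therefore no measure of how common such differences are. Values are the log2 effect at 50 dpf less that at 8 mpf. For cdkn1a the difference was -2.26 (adjusted p = 0.00193), with a mean of 0.544 CPM in heterozygotes and 0.858 CPM in wild type at 8 mpf. Its effect at 8 mpf, -0.68, was not called (adjusted p = 0.0679 in edgeR's quasi-likelihood test).

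Among genes that rose at 50 dpf, the difference was 7.29 for P2RX4 (adjusted p = 4.78e-04), which stood at a mean of 0.31 CPM in heterozygotes and 0.268 CPM in wild type at 8 mpf. It was 3.42 for YJEFN3 (adjusted p = 6.68e-05), 3.13 for PAPPA2 (adjusted p = 0.00183), 3.11 for SH2D3C (adjusted p = 1.04e-04) and 1.98 for BRINP3 (adjusted p = 0.00852). Without HE 3 the difference of P2RX4 was 6.60, without WT 1 that of YJEFN3 was 4.10 and that of BRINP3 2.64, and without WT 3 that of PAPPA2 was 3.93. For MATN1 the fitted difference was -4.74 (adjusted p = 0.0269), and the call was lost without WT 1, without WT 3 (-4.09), with the replicate block and by limma-trend. At 8 mpf MATN1 averaged 7.72 CPM in heterozygotes and had no count in wild type, so the size of this value depends on the prior count, is no bound and shows no difference in size between the ages.

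Among genes that fell at 50 dpf, the difference was -5.04 for GPC1 (adjusted p = 0.00156), -4.28 for ADM (adjusted p = 1.21e-04) and -3.50 for HEPACAM2 (adjusted p = 0.00423). Fitted differences were -10.37 for RXFP2 (adjusted p = 1.21e-06), -15.03 for ahsg2 (adjusted p = 0.0028) and -8.32 for fap (adjusted p = 4.71e-05). These 3 genes have no count in the heterozygotes of 50 dpf, so the size of the fitted value depends on the prior count and is no bound. At 8 mpf ahsg2 averaged 0.0174 CPM in heterozygotes and 0 CPM in wild type, and RXFP2 2.49 CPM in heterozygotes and 15.6 CPM in wild type.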

How the results depend on the processing

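Under each of the 17 alternatives run, cdkn1a kept its direction and its call, at -3.27 by library size alone and -2.88 to -3.03 with 1 library left out. With 1 library left out, 5932 to 7630 genes were called, 2657 to 3684 higher and 3167 to 3946 lower, with the fewest calls without WT 2. Scaled by library size alone, 1618 genes were higher and 6745 lower, and the cause was not tested. With a log2 fold change of at least 1 asked for as well, 3461 genes remained by construction, 966 higher and 2495 lower. DESeq2 called 8274 genes, and limma-trend on the deposited normalized values called 7669 with a pseudocount of 1 and 7180 with 0.1. Of the 321 genes that the naming rule picked, library size alone ended 37 calls and limma-trend with 0.1 ended 17, while DESeq2 ended 0. Turned in direction were cdh18a (-0.03 by library size alone) and macf1a (0.02 by limma-trend with either pseudocount, 1 or 0.1), and the cause was not tested. Of the 128 counts of list members called in a direction, 70 moved by over 1.5 times by library size alone and 13 by upper quartile scaling. With the replicate block 7441 genes were called, 3577 higher and 3864 lower, and cdkn1a was at -2.94. Same-numbered libraries deviated together by correlations of 0.0784, 0.00218 and 0.074, and libraries with different numbers by -0.0773 to 0.0166. With 3 libraries per group these values cannot settle whether the numbers pair the samples. The part that depth plays in the calls of genes under 1 CPM was not tested.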
